A study of Mus musculus with 6 samples.

Results

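Insr, Irs1, Irs2, Pik3r1, Akt1, Foxo1, Foxo3 and Foxo4 encode the insulin receptor, its docking proteins, a regulatory subunit of PI3 kinase, a kinase of the AKT family and the FOXO transcription factors that AKT controls. The 8 genes were taken by symbol with no filter on their values, though with earlier results of these data known. They came out of 24421 genes in the count table and 24346 in the FPKM table, and all 8 were present in both. Their RNA was read in liver endothelial cells (ECs) sorted by FACS as CD31+CD45- from WT C57BL/6J mice, which were all female by the study's account and for which the labels name no treatment. Young mice were 10 weeks old (3 samples) and the aged mice were 127, 131 and 136 weeks old (1 sample at each age, 3 in all). Per the study's methods the 3 samples of a group were collected independently, so the p-values below measure the spread between these few samples. The sort takes all ECs of the liver as 1 bulk sample, so sinusoidal and large-vessel ECs were read together.

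Insulin binding switches on the tyrosine kinase of its receptor, which marks the docking proteins IRS1 and IRS2 so that they recruit PI3 kinase and, through its lipid product, bring AKT to the membrane. Active AKT phosphorylates the FOXO factors and keeps them out of the nucleus, so their target genes are transcribed mainly when insulin signalling is low. In ECs the pathway is known for its control of nitric oxide production and of insulin passage, and Foxo1 for its part in vessel growth and EC quiescence. RNA levels do not report phosphorylation or the place of these proteins in the cell.

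The tables held 23001556 to 31651817 counts per sample, and 14612 genes were tested. The sorted cells carried all 10 pan-endothelial markers (summed level 14680 to 15960 CPM, counts scaled to library size, in young and 10590 to 13720 in aged), while sinusoidal markers summed to 16550 to 18450 CPM in young and 6234 to 11200 in aged, with 7 of 8 lower at an unadjusted p under 0.05. In bulk samples, fewer cells of a type and less RNA per cell cannot be told apart. Leukocyte markers summed to 188.2 to 226.8 CPM in young samples and to 287.3, 216.7 and 775 CPM at 127, 131 and 136 weeks. Of these markers 12 of 12 were higher, 8 with an unadjusted p under 0.05 and 2 without overlap (16.7%). Cd3e had 0 counts in young sample 3. Over all genes tested, 12.6% had an unadjusted p under 0.05 and 17.9% were without overlap. Genes known to respond to tissue dissociation summed to 22170 to 25730 CPM in young and 25630 to 33870 in aged samples (12 of 13 higher). Cholangiocyte markers summed to 88.1 to 104.7 CPM in young and 189.3 to 236.9 in aged, without overlap (5 of 5 higher, 2 with an unadjusted p under 0.05). The libraries of young sample 3 and of the 127-week sample stood apart, with Lars2 and Rn45s taking 1.29 and 0.96% of their counts against 4.68 to 5.53% in the other 4.

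In edgeR's quasi-likelihood test with Benjamini-Hochberg adjustment, none of the 8 genes differed between aged and young at an adjusted p under 0.05, nor did any of the 14612 genes (0% called, smallest adjusted p 0.0735). Irs2 was the member with the clearest difference, at a mean level of 9.58 CPM in aged against 2.33 in young samples, and the other 7 had overlapping groups. An unadjusted p under 0.05 was found for 1 member of 8 (12.5%), Irs2, beside 1847 of all genes (12.6%, with 8.32% higher and 4.32% lower in aged samples). Groups without overlap were found for the same 1 member, beside 2622 genes (17.9%, with 9.62% higher and 8.33% lower). DESeq2 called this 1 member at an adjusted p under 0.05, beside 639 of 13979 genes (4.57%, with 3.46% higher and 1.11% lower). A count of 1 in 8 is thus near the background by the first of these measures and is no result about the set. The aged level was above the young level for 6 members and below it for 2. The median of their log2 fold changes was 0.11, beside 0.01 over all genes tested.

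**Figure D1:**
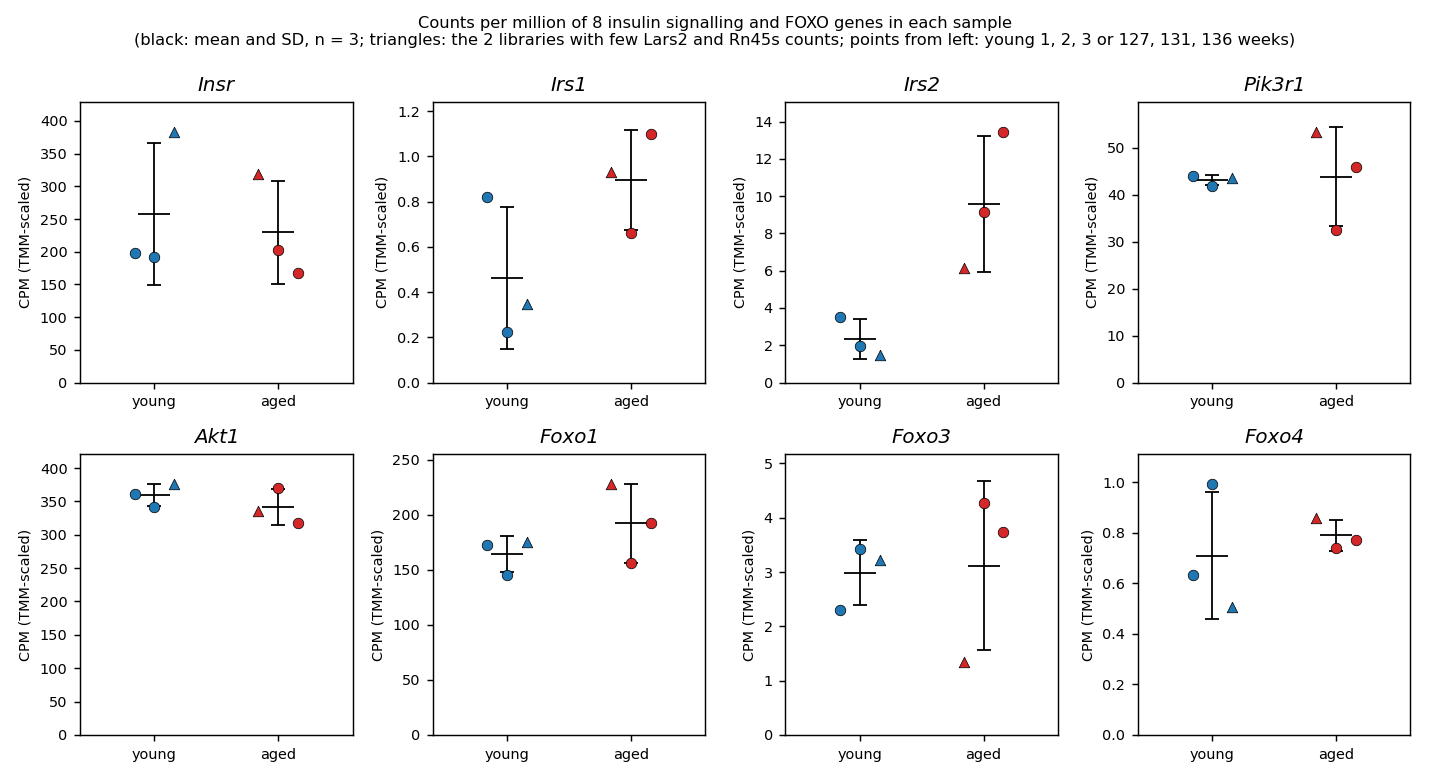
TMM-scaled CPM of the 8 genes in each sample, 1 panel a gene, with young (blue) on the left, aged (red) on the right, triangles for the 2 libraries with few Lars2 and Rn45s counts, and black bars for the mean and SD (n = 3). The 3 aged samples sit between 6.16 and 13.4 CPM for Irs2, all above the young samples at 1.48 to 3.54, and the groups overlap in the other 7 panels.

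Measured per transcript length (FPKM, which allows levels of different genes to be compared), the kinase gene Akt1 stood highest at 140 ± 8.09 FPKM in young and 132 ± 10.3 in aged samples (mean ± SD, n = 3 for all values of this kind). Foxo1 followed at 29.8 ± 3.19 and 34.7 ± 6.70, and Insr at 27.3 ± 11.8 and 24.1 ± 8.41, and the samples of these neighbours overlapped in both age groups. Pik3r1 was at 6.20 ± 0.202 FPKM in young and 6.25 ± 1.53 in aged samples. The lower end of the order held Foxo3, Irs2, Foxo4 and Irs1, so the receptor and the kinase were read at far higher levels than either docking protein. Foxo3 at 1.02 ± 0.200 overlapped Irs2 at 0.689 ± 0.251 FPKM in young samples. In aged samples the order of these neighbours was turned, with Irs2 at 2.66 ± 0.932 above Foxo3 at 1.07 ± 0.542 FPKM and no overlap. Foxo4 was at 0.224 ± 0.0749 and 0.243 ± 0.0131 FPKM, and Irs1 was lowest at 0.0502 ± 0.0335 and 0.0965 ± 0.0236.

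**Figure D2:**
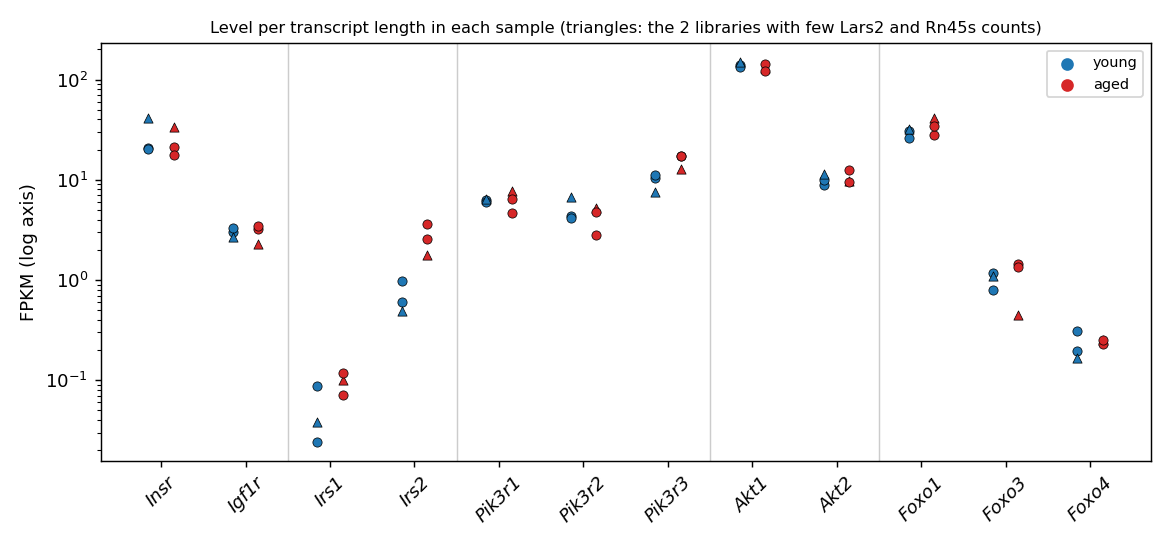
FPKM of the 8 genes and of their relatives Igf1r, Pik3r2, Pik3r3 and Akt2 in each sample on a log axis, with young samples in blue, aged samples in red and triangles for the 2 libraries with few Lars2 and Rn45s counts. Akt1 lies highest (means of 140 and 132 FPKM) and Irs1 lowest, and the aged samples lie above all young samples for Irs2 and for the relative Pik3r3.

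Irs2 is the docking protein that links the receptor to PI3 kinase in liver and many other tissues, and Irs1 is its close relative. In the mm9 build, Irs2 lies on chromosome 8 from 10986980 to 11008458 (minus strand, 2 merged exons) and Irs1 on chromosome 1 from 82229676 to 82287991 (minus strand, 2 merged exons). Their promoters are shown because Irs2 carried the clearest difference and both genes hold the same pair of motifs close to the start. RefSeq promoters of 300 bases (250 before the start and 50 from it on, GRCm38.p6) were matched for 6 of the 8 members, with 8 entries, all but Insr and Foxo4. The Irs2 promoter spans chr8:11008880-11009179 and the Irs1 promoter chr1:82291390-82291689, both on the minus strand and printed 5′ to 3′ in the direction of the gene, with capitals for matches to CACGTG (an E-box) and to CAAAACA (the core of the insulin response sequence, here as its reverse complement TGTTTTG).
Irs2: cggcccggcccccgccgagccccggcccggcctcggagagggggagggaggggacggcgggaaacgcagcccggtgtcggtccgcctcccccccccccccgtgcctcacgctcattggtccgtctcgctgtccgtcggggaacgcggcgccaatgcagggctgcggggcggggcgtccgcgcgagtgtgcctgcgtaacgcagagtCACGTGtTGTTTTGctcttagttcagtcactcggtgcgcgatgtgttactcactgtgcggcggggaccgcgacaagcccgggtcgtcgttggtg
Irs1: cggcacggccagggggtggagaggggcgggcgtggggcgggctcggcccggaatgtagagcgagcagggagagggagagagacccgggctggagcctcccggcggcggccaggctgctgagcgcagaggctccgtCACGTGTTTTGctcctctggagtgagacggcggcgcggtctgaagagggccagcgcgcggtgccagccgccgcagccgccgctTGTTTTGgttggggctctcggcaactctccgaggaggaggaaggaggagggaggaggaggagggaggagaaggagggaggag
Both strands were searched for these motifs and for the forkhead motif GTAAACA. In the Irs2 promoter CACGTG begins 44 bases and TGTTTTG 37 bases before the start. In the Irs1 promoter CACGTG begins 115 bases before the start and overlaps the TGTTTTG that begins at 111, and another TGTTTTG begins at 32. Of the 8 entries, CACGTG and CAAAACA were each found in 2, those of Irs1 and Irs2, and GTAAACA in 1, an Akt1 entry 161 bases before its start. Over 32851 promoters of the same length, 7.15% held CACGTG, 6.28% CAAAACA and 3.65% GTAAACA. A match is a run of letters in this window and says nothing of binding.

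Irs2 had 95, 44 and 47 counts in young samples 1 to 3 and 179, 235 and 331 counts in the 127-, 131- and 136-week samples. On the TMM-scaled CPM scale these were 3.54, 1.99 and 1.48 against 6.16, 9.14 and 13.4. Every aged sample lay above every young sample, the lowest aged value being that of the 127-week library. The aged level was 4.10 times the young level (95% interval 2.01 to 8.35), a log2 fold change of 2.03 (SE 0.44). The unadjusted p was 0.00209, rank 142 of 14612 genes, and the edgeR adjusted p was 0.215, so the difference did not pass the threshold over all genes. DESeq2 gave an adjusted p of 0.00147 for the same counts.

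Irs2 stood higher in aged samples in both kinds of library. The difference of log2(CPM + 1) was 1.72 among the 4 libraries with many Lars2 and Rn45s counts and 1.53 between the 2 with few. Leaving out 1 sample at a time gave log2 fold changes of 1.71 to 2.47. Among aged samples, the leukocyte marker sum lay within the young range at 131 weeks alone (216.7 CPM). The dissociation gene sum did so at 127 weeks alone (25630 CPM). Gene by gene, 7 of the 13 dissociation genes were higher without overlap and 1 was lower (61.5%, beside 17.9% of all genes). The aged order of Irs2 was that of the dissociation gene sums (25630, 26920 and 33870 CPM) and also that of age. In young samples 1 to 3 these sums rose (22170, 23600 and 25730 CPM) while Irs2 fell (3.54, 1.99 and 1.48 CPM). The cholangiocyte marker sum was higher in all 3 aged samples, as Irs2 was, and 2 of its 5 genes were without overlap (40%, beside 17.9% of all genes). With the mean of leukocyte markers as a term in the fit the log2 fold change was 1.71 and the edgeR adjusted p 0.547. What part RNA of other cell types or the dissociation had in the Irs2 level was not tested.

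Irs1 had 22, 5 and 11 counts in young and 27, 17 and 27 counts in aged samples, or 0.819, 0.226 and 0.347 against 0.929, 0.661 and 1.10 CPM. The groups overlapped, since young sample 1 lay above the 131-week sample. The log2 fold change was 0.94 (SE 0.68, 95% interval -0.65 to 2.52, edgeR adjusted p 0.628) at these few counts. Irs1 and Irs2 together came to 0.739 ± 0.281 FPKM in young and 2.76 ± 0.943 in aged samples without overlap, of which Irs2 made up 93.5 ± 2.33 and 96.3 ± 1.44%. On the other strand, exons of Gm9747 share 2822 bases with those of Irs1 and exons of 9530052E02Rik share 162 bases with those of Irs2, and without strand such reads cannot be told apart. The gene 9530052E02Rik itself had 1 count over all 6 samples.

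Insr, the receptor itself, lies on chromosome 8 from 3150922 to 3279617 of mm9 (minus strand, 22 merged exons). Its levels were 198, 192 and 383 CPM in young samples 1 to 3 and 319, 202 and 168 CPM in the 127-, 131- and 136-week samples. The groups overlapped widely, and the high values were those of young sample 3 and the 127-week sample, the libraries with few Lars2 and Rn45s counts. The mean was 258 ± 109 CPM in young and 230 ± 79.0 in aged samples, with a log2 fold change of -0.17 (SE 0.34, 95% interval -0.97 to 0.64, edgeR adjusted p 0.899). The sign did not hold, being 0.23 without young sample 3 and 0.02 without the 136-week sample.

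Insr was 1.85 times as high in the 2 libraries with few Lars2 and Rn45s counts (319 to 383 CPM) as in the other 4 (168 to 202 CPM), with no overlap. It was the member for which both of these libraries lay above the rest, as they did for 16.6% of all genes, and a further 14.1% of genes lay below in both. Within the libraries of a kind, aged minus young was -0.08 among the 4 and -0.26 between the 2 on the log2(CPM + 1) scale. The relative Igf1r, the receptor for insulin-like growth factor 1, was at 37.7, 40.4 and 32.3 CPM in young and 27.8, 39.8 and 42.2 in aged samples, with its lowest values in the same 2 libraries. The FPKM ratio of Insr to Igf1r was therefore 15.4 and 14.8 there and 5.13 to 6.83 in the other 4. What part the library kind had in the Insr values was not tested.

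**Figure D3:**
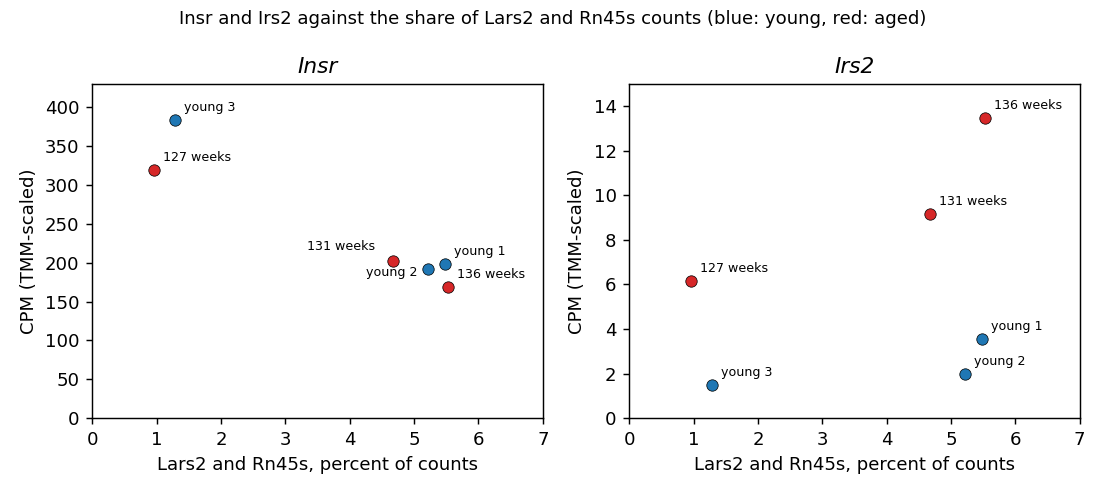
TMM-scaled CPM of Insr (left) and Irs2 (right) against the percentage of counts taken by Lars2 and Rn45s, 1 point a sample, with young in blue and aged in red. Insr is high in the 2 libraries at the left of the axis whatever their age group (319 and 383 CPM), whereas the aged samples of Irs2 lie above the young ones on both sides.

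Pik3r1 encodes p85 alpha, the regulatory subunit that brings the catalytic subunit of PI3 kinase to IRS proteins (chromosome 13 from 102450716 to 102538172 of mm9, minus strand). It was at 44.0, 41.8 and 43.6 CPM in young and 53.4, 32.4 and 45.9 CPM in aged samples. The aged samples lay on both sides of the narrow young range. The log2 fold change was 0.03 (SE 0.20, 95% interval -0.43 to 0.48, edgeR adjusted p 0.978). Among its relatives, Pik3r2 was at 12.9 to 21.1 CPM in young and 8.77 to 16.3 in aged samples (log2 fold change -0.25, adjusted p 0.801). Pik3r3, which encodes p55 gamma, was at 53.1, 57.3 and 38.0 CPM in young and 64.4, 89.4 and 88.1 in aged samples, without overlap. Its log2 fold change was 0.71 (SE 0.21, unadjusted p 0.0109, edgeR adjusted p 0.275, DESeq2 adjusted p 0.0876). The 3 regulatory genes summed to 20.7 to 21.3 FPKM in young and 25.6 to 26.9 FPKM in aged samples, and Pik3r1 made up 29.4 ± 1.36 and 23.8 ± 6.38% of that sum. The catalytic genes Pik3ca, Pik3cb and Pik3cd summed to 9.23 ± 2.33 and 8.42 ± 0.892 FPKM, with overlap.

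Akt1, the kinase that passes the signal on, lies on chromosome 12 from 113892032 to 113913095 (minus strand, 16 merged exons) and was the most even member. Its levels were 361, 342 and 376 CPM in young and 336, 371 and 318 CPM in aged samples. The ranges overlapped, and the interval of the log2 fold change was narrow, from -0.40 to 0.25 around -0.07 (SE 0.14, edgeR adjusted p 0.887). Its relative Akt2 was read at a far lower level, at a mean of 10.1 FPKM in young and 10.6 in aged samples, with a log2 fold change of 0.09 (edgeR adjusted p 0.899). With Akt1 even and Irs2 higher, the FPKM ratio of Akt1 to Irs2 was 144 to 303 in young and 33.8 to 73.6 in aged samples, without overlap.

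Foxo1, the FOXO factor best known in ECs, lies on chromosome 3 from 52072259 to 52154031 (plus strand, 3 merged exons). It was at 173, 145 and 175 CPM in young and 228, 156 and 193 CPM in aged samples. The 131-week sample lay inside the young range and the other aged samples above it. The log2 fold change was 0.23 (SE 0.18, 95% interval -0.19 to 0.64, edgeR adjusted p 0.664), and it was above 0 in every fit with a sample left out, at 0.09 to 0.36. Foxo1 made up 95.9 ± 1.16% of the summed FPKM of Foxo1, Foxo3 and Foxo4 in young and 96.1 ± 2.02% in aged samples, so it was by far the main FOXO transcript of these cells. Its exons share 674 bases with a transcript on the other strand, as those of Pik3r1 do over 48 bases.

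Foxo3, a factor with many of the same targets (chromosome 10 from 41901647 to 41996561, minus strand, 5 merged exons), had 62, 76 and 102 counts in young and 39, 110 and 92 counts in aged samples, or 2.31, 3.43 and 3.22 against 1.34, 4.28 and 3.74 CPM. The 127-week sample was lowest of all and the other aged samples were highest, so the mean of 2.99 ± 0.596 CPM in young and 3.12 ± 1.56 in aged samples hides a wide spread. Its log2 fold change was 0.06 (SE 0.48, edgeR adjusted p 0.978), and within libraries of a kind the difference of log2(CPM + 1) was 0.39 among the 4 and -0.85 between the 2. Foxo4, the X-linked member (98449867 to 98456212, plus strand), had 16 to 22 counts in young and 19 to 25 in aged samples. Its CPM values of 0.633, 0.993 and 0.505 spanned the aged ones of 0.860, 0.739 and 0.772, with a log2 fold change of 0.16 (SE 0.55, edgeR adjusted p 0.946). Foxo6 had 2 to 12 counts per sample and was not tested.

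Of 50 other genes of the pathway, 46 passed the filter, with 25 higher and 21 lower in aged samples. The median of their log2 fold changes was 0.06. None passed the edgeR adjusted threshold, 4 were higher and 0 lower at an unadjusted p under 0.05 (8.70%, beside 12.6% of all genes), and DESeq2 called 3 of the 46, all among those 4, beside 4.57% of all genes. Besides Pik3r3 these were Grb14, Socs2 and Socs3, all of which encode proteins that dampen receptor signalling. Irs2, Grb14 and Socs2 are also on the study's own list of genes higher in aged ECs, which was drawn from these samples and is no independent evidence of their direction. Insrr (0 to 3 counts) and Irs3 (1 to 5 counts) were hardly detected. Irs4 had 0 counts in all samples, which allows up to 0.0948 to 0.13 CPM at a floor of 3 counts per library.

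Grb14, an adaptor that blocks the kinase of the receptor, was at 1.15, 1.26 and 0.536 CPM in young and 3.06, 4.94 and 3.13 CPM in aged samples. The groups did not overlap, with a log2 fold change of 1.92 (SE 0.47, edgeR adjusted p 0.237, DESeq2 adjusted p 0.00811). Socs2, a cytokine-induced suppressor best known for limiting growth hormone signalling, was at 18.1 to 24.9 CPM in young and 60.8, 35.2 and 95.4 CPM in aged samples, a log2 fold change of 1.54 (SE 0.35, edgeR adjusted p 0.235, DESeq2 adjusted p 0.00288). Its aged values had the same order as the leukocyte marker sums of those samples (287.3, 216.7 and 775 CPM), whose part in them was not tested. Socs3, a suppressor induced by cytokines of the IL-6 family, was at 869, 1026 and 940 CPM in young and 1256, 1795 and 2683 CPM in aged samples, without overlap. Its log2 fold change was 1.02 (SE 0.29, edgeR adjusted p 0.256, DESeq2 adjusted p 0.0208). The aged order of Socs3 was that of the dissociation genes (25630, 26920 and 33870 CPM) and also that of age. Young samples 1 to 3 had dissociation gene sums of 22170, 23600 and 25730 CPM, an order that Socs3 did not share. The part of the dissociation genes was likewise not tested.

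By role, 7 of the 8 inhibitors near the receptor were higher in aged samples, beside 7462 of all 14612 genes. Of the 8, 3 had an unadjusted p under 0.05, beside 12.6% of all genes (8.32% higher), and none passed the adjusted threshold. Grb10 was the lower one, at a log2 fold change of -0.12 (adjusted p 0.868), and the tyrosine phosphatase gene Ptpn1 was at 0.17 (adjusted p 0.720). The 6 lipid or AKT phosphatases were all lower. The 5 tested adaptors and the 5 other kinases of the AKT step were all higher. None of these had an unadjusted p under 0.05. The 12 genes of the mTOR branch, which controls growth downstream of AKT, had log2 fold changes of -0.30 to 0.25, with 5 higher and 7 lower and none at an unadjusted p under 0.05.

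**Figure D4:**
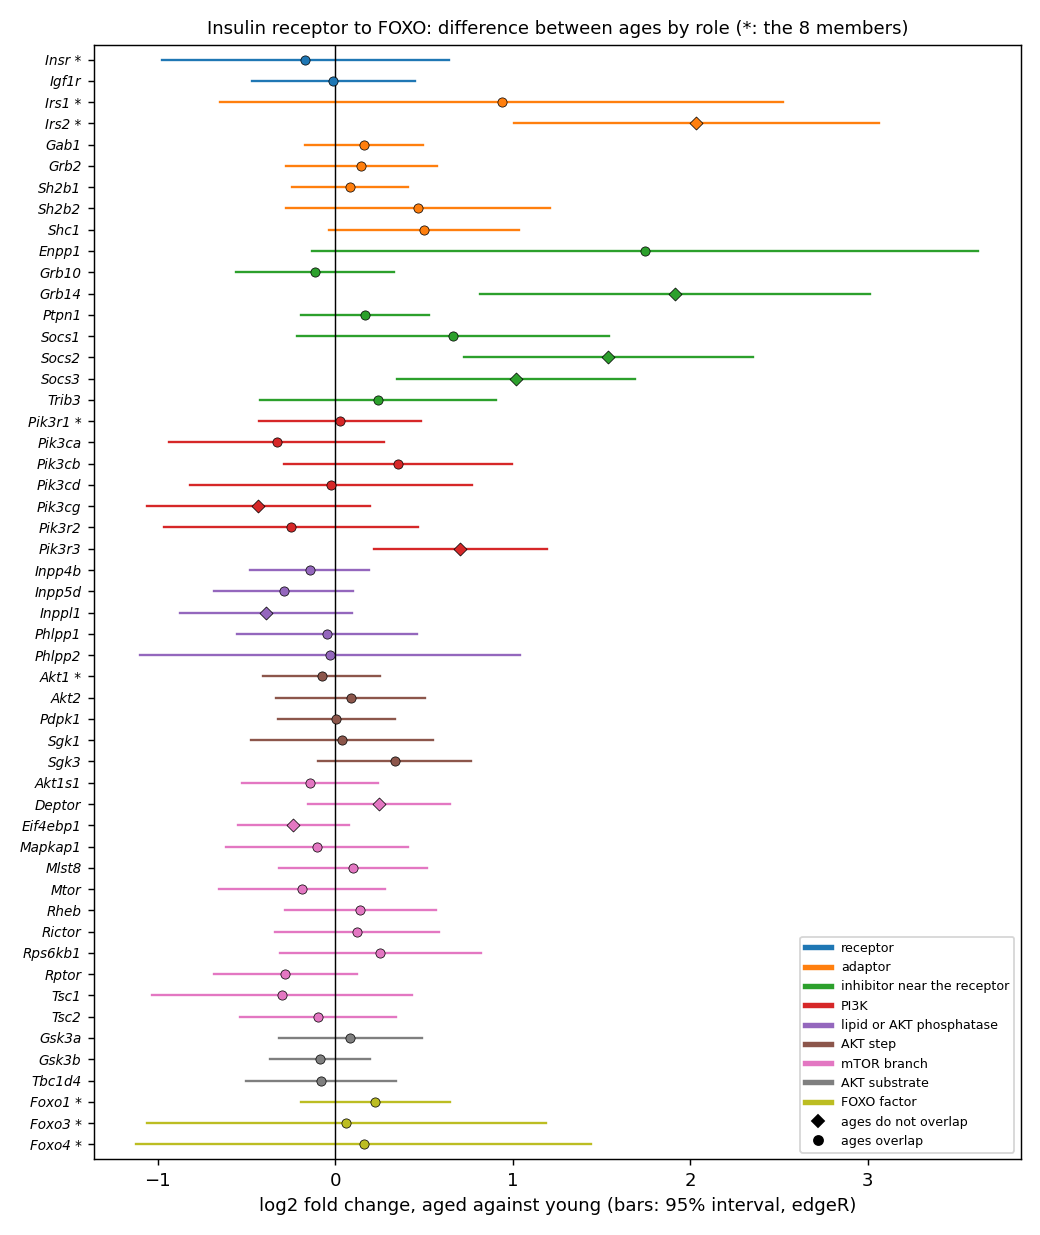
Log2 fold change, aged against young, of the 8 members (stars) and 44 pathway genes, coloured by role, with the edgeR estimate as a diamond where the ages do not overlap and a circle where they do, and bars for its 95% interval. The intervals of Irs2 (1.01 to 3.06), Grb14, Socs2, Socs3 and Pik3r3 lie above 0, and those of the other 7 members include 0.

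FOXO factors switch on genes of cell cycle and stress, death and survival, metabolism and redox, and endothelial or transcription factor roles. All 19 such targets listed were tested. In aged samples 10 were higher and 9 lower. The median of the 19 log2 fold changes was 0.01, the same as over all genes when rounded. At an unadjusted p under 0.05 there were 2 higher and 2 lower (21.1%, beside 12.6% of all genes), neither edgeR nor DESeq2 called any at an adjusted p under 0.05, and 1 was higher and 2 were lower without overlap (15.8%, beside 17.9%). Gadd45a, which slows the cell cycle after stress, was at 5.66, 5.33 and 11.4 CPM in young and 10.5, 16.8 and 21.0 in aged samples (log2 fold change 1.10, edgeR adjusted p 0.332). Cited2, a transcriptional coregulator, was at 40.2, 32.5 and 45.2 CPM against 41.1, 87.2 and 65.2 (0.71, adjusted p 0.368). Both overlapped between the groups.

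Sesn1, a stress-induced inhibitor of mTORC1, was at 88.8, 73.5 and 97.6 CPM in young and 59.5, 77.4 and 52.2 CPM in aged samples, a log2 fold change of -0.46 (adjusted p 0.386). Cat, the hydrogen peroxide scavenger catalase, was at 161, 151 and 152 CPM against 107, 136 and 120 without overlap, a log2 fold change of -0.35 (adjusted p 0.371). The targets thus lay on both sides of 0, and leaving out a sample changed how many had an unadjusted p under 0.05, from 0 (without young sample 1, or without the 136-week sample) to 6 of 19 (without the 131-week sample). The share of all genes with such a p differed between the same fits, at 8.86, 7.78 and 16.7%.

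Of the growth genes that FOXO factors repress, Myc was at 39.1, 51.0 and 26.9 CPM in young and 101, 94.8 and 372 CPM in aged samples. All aged samples lay above the young ones, the 136-week sample far above the rest, and the log2 fold change was 2.28 (SE 0.57, edgeR adjusted p 0.243, DESeq2 adjusted p 0.00151). The 136-week sample also had the highest leukocyte marker sum (775 CPM) and dissociation gene sum (33870 CPM), whose part in the Myc value was not tested. Ccnd2, a D-type cyclin, was at 372, 338 and 309 CPM against 274, 274 and 230, without overlap and in the other direction (log2 fold change -0.39, adjusted p 0.368), and Ccnd1 was at -0.10 (adjusted p 0.938).

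The insulin-repressed liver genes that FOXO1 drives in hepatocytes were read at low levels. G6pc, the last enzyme of glucose release, had 28, 29 and 56 counts in young and 0, 2 and 4 counts in aged samples (log2 fold change -4.06, edgeR adjusted p 0.235, DESeq2 adjusted p 0.002). Pck1, a gluconeogenic enzyme, had 223, 315 and 226 counts against 34, 93 and 85 (log2 fold change -1.85, edgeR adjusted p 0.250, DESeq2 adjusted p 0.0118). Both were without overlap. Hepatocyte markers were lower too, with 11 of 11 measured markers below the young level in aged samples, 6 with an unadjusted p under 0.05, and their sum was 139.7 to 228.4 CPM in young and 97.76 to 118.2 in aged samples. The part of hepatocyte RNA in these values was not tested. Igfbp1 had 0 to 5 counts per sample and was not tested.

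**Figure D5:**
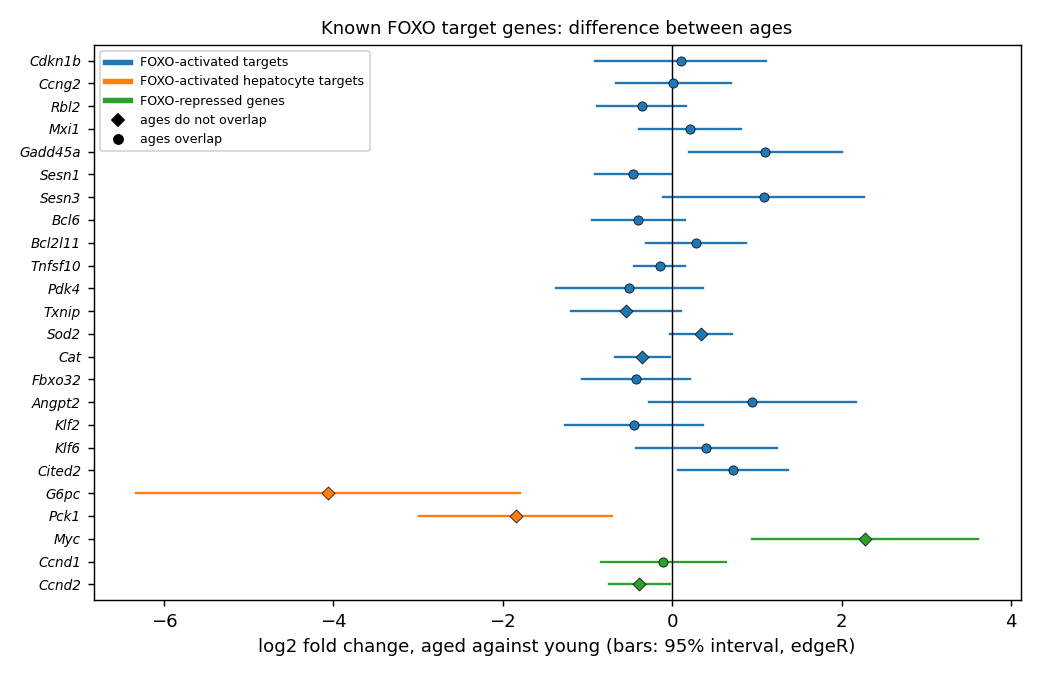
Log2 fold change, aged against young, of the FOXO-activated, FOXO-repressed and hepatocyte target genes, with the edgeR estimate as a diamond where the ages do not overlap and a circle where they do, and bars for its 95% interval. The 19 activated targets lie on both sides of 0 (10 higher, 9 lower), and G6pc and Pck1 lie lowest at -4.06 and -1.85.

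The patterns of the 8 genes across the 6 samples differed from one another. For each member, the genes most like it were sought by Pearson's r of log2(CPM + 1) over these 6 samples among 8913 genes with a mean of at least 10 CPM, and so many candidates over so few samples give high values for any pattern. Insr was most like Ushbp1 (r = 0.998) and Sirt7 (0.997), both high in the 2 libraries with few Lars2 and Rn45s counts, with Ushbp1 at 757 and 611 CPM there and 228 to 314 in the other 4. Irs2 was most like Zfp414 (0.994) and G6pdx (0.993), the latter a gene of the pentose phosphate pathway at 30.7 to 38.0 CPM in young and 42.2 to 53.7 in aged samples. The nearest genes were Hivep1 (0.996) and Pcm1 (0.980) for Foxo1, Scrn3 (0.984) and Art4 (0.977) for Akt1, and Irgm2 (0.973) and Fbxo4 (0.968) for Pik3r1. For the low members they were Gbe1 (0.983) and Eif2b2 (0.974) for Foxo3, Disp1 (0.972) and Hibch (0.969) for Irs1, and Tgfbr2 (0.966) and Srsf10 (0.962) for Foxo4.

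Among the 28 pairs of members, the highest r was that of Irs1 with Irs2 (0.824) and the lowest that of Pik3r1 with Foxo3 (-0.787). Pik3r1 and Foxo1 (0.775) were both highest in the 127-week sample, in which Foxo3 was lowest, and Foxo1 with Foxo3 came to -0.727. These values describe 6 samples that share their libraries and depth, and 1 sample weighs heavily in each.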

How the data were processed

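RNA of CD31+CD45- liver ECs was sequenced from 3 young and 3 aged samples as 75-base single-end reads after TruSeq v2 library preparation. Per the submitters' processing notes and the study's methods, the authors called bases with CASAVA 1.8.2, mapped reads to mm9 with TopHat2 2.1.0 and computed FPKM with Cuffnorm 2.2.1. The authors deposited raw counts per gene and FPKM per gene. The counting program, its annotation and its use of strand are not given in the sources used here. How reads shared between genes were counted could therefore change single values.

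The counts were kept as deposited. Genes with at least 0.5 CPM in at least 1 sample (14612 of 24421) were scaled by TMM and tested with edgeR 4.0.16 (quasi-likelihood, aged against young, 6 samples, no covariate, two-sided) in R 4.3.3, with Benjamini-Hochberg adjustment over all of them and a threshold of 0.05. SEs are the log2 fold change divided by the root of F, and intervals are at 95%. FPKM served for levels between genes and, with limma 3.58.1 on log2(FPKM + 0.1) and log2(FPKM + 1), as an alternative. A fold change on that scale understates the change of low genes. Other alternatives were DESeq2 1.42.0, its size factors in edgeR, voom, other filters, a fit without Lars2 and Rn45s, each sample left out, and terms for library kind or leukocyte markers. The edgeR and DESeq2 fits were also run on simulated counts with planted changes. These counts held no split between library kinds, so that run cannot speak to its effect. A floor of 3 counts per library is 0.0948 to 0.13 CPM and covers counting error only, since the libraries carry no molecular identifiers. With 3 against 3 samples an exact permutation test cannot go below 0.1, so none was used.

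The members, the gene lists and the tests were chosen with earlier results of these data known. The genes named are the 8 members, their relatives and main inhibitors, listed genes with an unadjusted p under 0.05, the FOXO-repressed and hepatocyte targets, and the 2 genes most like each member, and some of these are not reported here. Gene positions are from the GENCODE annotation of mm9 and promoters from RefSeq (GRCm38.p6), used for their letters only. Replicates differed beyond counting noise, so each counted as 1 sample. Of the hepatocyte markers, 11 of 12 were matched by symbol, Tf not.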

Additional observations from a re-analysis of the deposited data

How the results depend on the processing

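The count of genes called at an adjusted p under 0.05 was 0 with edgeR, 639 with DESeq2, 15 with voom and sample weights, 4 without a filter on low counts, 2 on log2(FPKM + 0.1), 2 with a term for library kind, 16 with a term for leukocyte markers and 0 to 1 with a sample left out (1 without the 131-week sample). Irs2 was higher in aged samples in all 17 alternatives, at log2 fold changes of 1.10 to 2.47 and adjusted p of 0.00147 to 0.625, and DESeq2 alone called it, the 1 member called. Members without overlap numbered 1 to 5 of 8 with a sample left out (5 without the 131-week sample, beside 34.5% of all genes, and 2 without young sample 1, young sample 2 or the 127-week sample, beside 25.0, 23.2 and 29.8%) and 2 in the 4 libraries with many Lars2 and Rn45s counts (45.6% of all genes), a setting chosen after seeing the data. With fewer samples more genes are without overlap whatever their levels. Pathway genes with an unadjusted p under 0.05 numbered 4 to 7 with a sample left out (7 of 46, 15.2%, without the 131-week sample, beside 16.7% of all genes). FOXO-activated targets with such a p numbered 0 to 6 of 19 (0 without young sample 1 or the 136-week sample, 1 without young sample 2, beside 8.86, 7.78 and 7.64% of all genes, and 6 without the 131-week sample, beside 16.7%) and 1 with the leukocyte term (5.91% of all genes). The sign turned for Insr with voom (0.16), for Foxo3 with voom (-0.14), log2(FPKM + 0.1) (-0.048) and the library term (-0.076), for Pik3r1 on log2(FPKM + 0.1) (-0.017), log2(FPKM + 1) (-0.011), with the leukocyte term (-0.15) and in the 4 libraries (-0.14), for Foxo4 in the 4 libraries (-0.11), and for Akt1 with the leukocyte term (0.0040). With a sample left out the log2 fold changes ran from -0.48 to 0.23 for Insr, -0.24 to 0.43 for Foxo3, -0.14 to 0.20 for Pik3r1 and -0.037 to 0.47 for Foxo4. The share of Irs2 in Irs1 plus Irs2 differed by 2.74 percentage points in FPKM and by 6.86 in CPM. Except where a sample or filter was itself what changed, the cause was not tested. Irs1 gave no value under the filter of at least 1 CPM in at least 3 samples. No paired analysis was run, since the labels give no pairing between young and aged samples. Depth limits Irs1 and Foxo4, with 5 to 27 counts per sample.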
